A study of Spodoptera exigua with 2 samples.

Results

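The 68 genes described here are those whose transcripts were at most 0.5 times as abundant in hemocytes of immune-challenged larvae as in hemocytes of naïve larvae of the beet armyworm, Spodoptera exigua. They were chosen by summing the transcripts of each gene over all cells with at least 200 genes, scaling the sum to the total of the library (CPM, counts in each 1000000), and taking genes with at least 20 CPM in the naïve library and a challenged over naïve ratio of 0.5 or less, with 0.5 count added to each sum. Of 13002 genes in the files, 4024 had at least 20 naïve CPM, and 70 of these (1.74%) had a ratio of 0.5 or less. The rule left out 2 of the 70, which gave the 68 members. Because the ratio chose the members, every difference between the libraries given below is a description of them and carries no test.

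Fifth-instar larvae received phosphate-buffered saline in the naïve group, or 140000 heat-killed Escherichia coli TOP10 cells each in the immune-challenged group, injected into a proleg. Hemocytes were taken 8 h later from pooled hemolymph, and 1 single-cell 3′ library was made per group, so that no value has a replicate error and larvae, library and treatment cannot be told apart. The naïve library kept 14840 cells with 81236890 unique molecular identifiers (UMIs, which count captured mRNA molecules) and the challenged library 12524 cells with 94496277. The median cell held 3347 UMIs before and 5282 after challenge, and 44 cell barcodes occurred in both. All intervals given are exact 95% intervals and cover counting error only.

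Insect hemocytes circulate in the open body cavity and carry out phagocytosis, encapsulation and melanization. When bacteria are sensed, immune signalling through the Toll and IMD pathways switches on antimicrobial peptide genes such as the cecropins. Hemocytes can also leave circulation by adhering to tissues and wounds. A transcript can therefore become scarcer in a hemocyte sample either because cells make less of it or because fewer of the cells that make it are sampled. The 68 members were divided along a related line, with clusters of cells weighted by their share of UMIs rather than of cells.

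Most members had no name in the sources used here and are given by their locus number. Only 4 members occur in the study's marker lists. These are SPEXI_LOCUS5407 (BLL4), SPEXI_LOCUS5733 (calphotin-like, after a calcium-binding protein of Drosophila photoreceptors), SPEXI_LOCUS349 (troponin T, which anchors the troponin complex of muscle to tropomyosin) and SPEXI_LOCUS11234 (HP12, a hypothetical protein). Of the other lists set beside the members, the cecropin list holds cecropins A1 and B, a PGRP LB-like gene of a family that binds or cleaves bacterial peptidoglycan, and spodoptericin. Its 4 genes summed to 5467 naïve and 28151 challenged CPM, with spodoptericin lower (1421 and 1119 CPM) and the other 3 higher. The cathepsin list (procathepsin H, a cysteine proteinase 1-like gene and the hypothetical gene HP3) summed to 23450 and 26791 CPM, with HP3 lower (5625 and 4726 CPM), and the 2 prophenoloxidase genes, precursors of the melanin-forming enzyme, to 8453 and 11110 CPM. The SPARC list (SPARC, a matrix glycoprotein, with hemocytin and 2 hypothetical genes) summed to 30199 and 23209 CPM and the 7 translation genes to 65767 and 57988 CPM. None of these 5 lists held a member. The 3 muscle genes went from 114 to 61.0 CPM, and troponin T is the member among them.

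The members were mostly modestly expressed genes. Their naïve levels ran from 20.3 to 1012 CPM with a median of 39.2, against 55.7 over all 4024 genes, and 40 were under 50 CPM while 18 reached 100 CPM. Together they summed to 6258 naïve and 2556 challenged CPM. Their median ratio was 0.391, from 0.0358 to 0.4999, against a median of 1.03 over all 4024 genes. The ratio was 0.25 or less in 13 members and above 0.4 in 32, and the upper bound of the ratio was above 0.5 in 10. In the other direction, 49 of the 4024 genes (1.22%) were at least 2-fold higher.

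**Figure D1:**
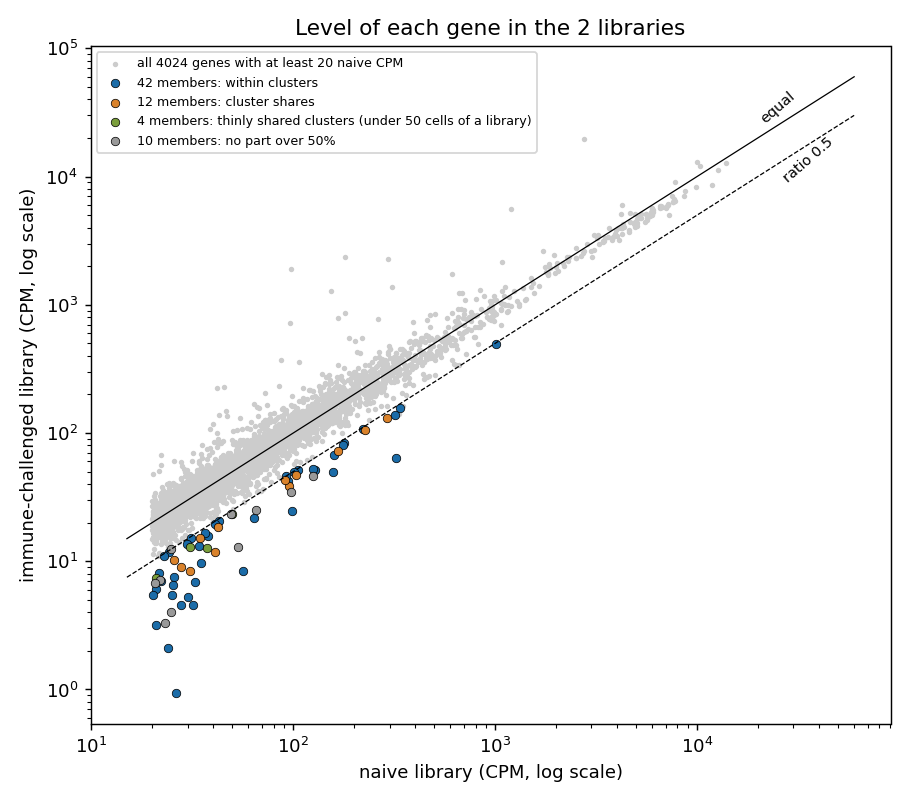
Each point is 1 gene, with its level in the naïve library on the x axis and in the immune-challenged library on the y axis (both CPM, log scale). The 68 members (coloured by where their fall lay) sit below the dashed line of ratio 0.5, from SPEXI_LOCUS1196 at 1012 naïve CPM down to SPEXI_LOCUS9291 at 0.931 challenged CPM.

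The thresholds cut through a continuum. Just inside the ratio limit, SPEXI_LOCUS8508 (92.0 to 46.0 CPM) had a ratio of 0.4999 and SPEXI_LOCUS11776 (24.9 to 12.4 CPM) one of 0.499. Just outside it, SPEXI_LOCUS8099 had 0.502 and SPEXI_LOCUS11556 had 0.506. At the naïve minimum, SPEXI_LOCUS5519 (20.3 to 5.44 CPM) and SPEXI_LOCUS10335 (20.7 to 6.72 CPM) were just inside. SPEXI_LOCUS11346 (19.2 to 3.49 CPM, ratio 0.182) and SPEXI_LOCUS4949 (19.0 to 8.74 CPM, ratio 0.459) were just outside.

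The members were concentrated in few naïve cells. The ratio did not use the spread over cells, but it used the same naïve UMIs. The feature is therefore not independent of the rule. The gene sets were not matched in level, and genes higher after challenge are measured here in the library where they were lower. The 1% of naïve cells with the most UMIs of a gene (148 cells) held a median of 36.0% of a member's UMIs, against 15.4% over all 4024 genes and 23.2% over the 49 genes at least 2-fold higher. In 24 members (35.3%) these cells held at least 50% of the UMIs, against 61 of the 4024 genes (1.52%). A UMI was found in a median of 9.29% of naïve cells for members and 19.6% for all 4024 genes. No 2 members had neighbouring locus numbers. In the far larger set of all 4024 genes, 2675 had a neighbour within the set. The 2 counts cannot be compared, and the absence is not read as a trait of the members.

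**Figure D2:**
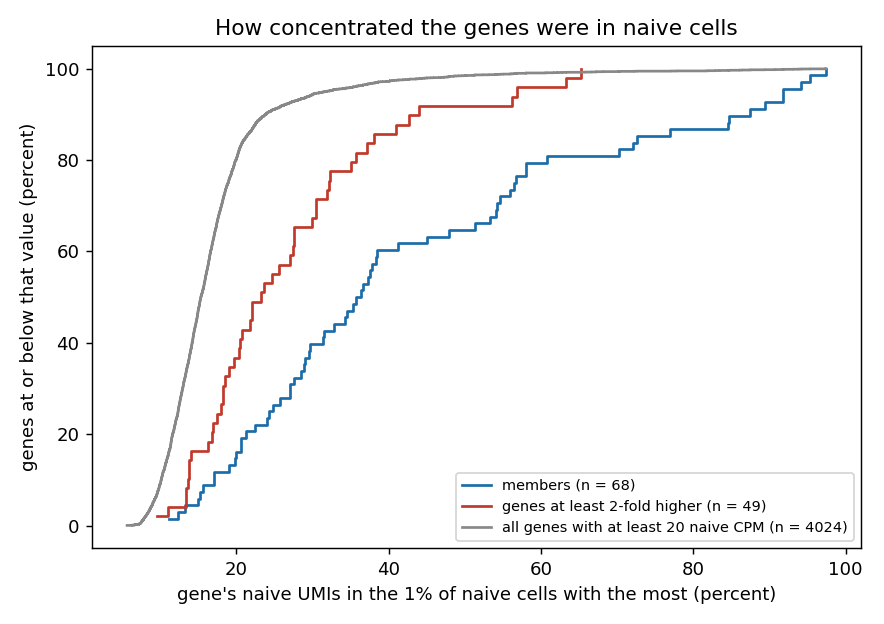
Cumulative percentage of genes (y axis) by the percentage of a gene's naïve UMIs held in the 1% of naïve cells with the most (x axis), for the 68 members, the 49 genes at least 2-fold higher and all 4024 genes. The line of the members lies to the right, with medians of 36.0%, 23.2% and 15.4%.

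To separate the 2 ways of becoming scarcer, the cells of both libraries were clustered together. From the genes used, 202 response genes were left out, which differed between the libraries across clusters. Among these were 14 members. They were picked for differing within clusters, so leaving them out bears on the size of the part within clusters. Of 33 clusters, 23 held at least 50 cells of each library. Within these, the fall of each gene in CPM was divided into a part from lower levels inside clusters and a part from a smaller share of UMIs for the clusters. A cluster's share of UMIs depends on both the number and the depth of its cells, so this part is not a count of cells. The other 10 clusters had under 50 cells of at least 1 library, held 1064 naïve and 1441 challenged cells, and gave a part of their own. They are called thinly shared here, and they include clusters nearly of 1 library (13, 15 and 18) as well as small clusters with cells of both (27 and 29 to 32). Clusters are numbered and described by the listed genes they carry, and no cell type is assigned. Since members were among the genes used to cluster, where a member was highest is partly set by the clustering. The counts by main part were also computed with all members left out of the clustering, while the ratios by cluster and the groups of members by cluster were not.

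With the response genes left out of the clustering, most of the summed fall of 3702 CPM lay inside clusters. Lower levels within clusters made up 58.6% of it, smaller cluster shares of UMIs 34.5% and thinly shared clusters 6.91%. By the part that made up over 50% of its fall, 42 members were placed under lower levels within clusters, 12 under cluster shares, 4 under thinly shared clusters and 10 under none. With all members left out of the clustering as well as the response genes, these counts were 43, 12, 2 and 11. With the response genes left in, so that cells could separate by the response itself, they were 19, 25, 3 and 21, and the part within clusters made up 39.5% of the summed fall. With a minimum of 20 in place of 50 cells of each library, no member was placed under thinly shared clusters. With shares of cells in place of shares of UMIs as weights, the counts were 46, 10, 4 and 8. Lower levels within clusters then made up 52.4% of the summed fall and cluster shares 44.7%.

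The same division over all 4024 genes gives the background. Cluster levels alone gave a ratio of 0.5 or less in 28 members, against 31 of all genes (0.77%), and cluster shares alone in 5 members, against 9 of all genes (0.224%). The median over clusters of the gene's ratio was 0.5 or less in 30 members and in 34 of all genes (0.845%). Of 838 pairs of a member and a cluster with at least 20 naïve UMIs, 730 had a ratio under 1. The share of the pairs of all genes under 1 was not counted. A ratio of 0.5 or less was found in 359 of the 838, where 4.42% of the pairs of all genes were at 0.5 or less. The interval was below 1 in 526 of the 838 pairs, where it was so in 20.4% of the pairs of all genes. It was above 1 in 45 of the 838, where it was so in 21.3% of the pairs of all genes. These 45 pairs came from 28 of the 68 members, and the share of all genes with such a pair was not counted. In every cluster compared, 21 of the 68 members were lower, where 0.845% of all genes were.

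**Figure D3:**
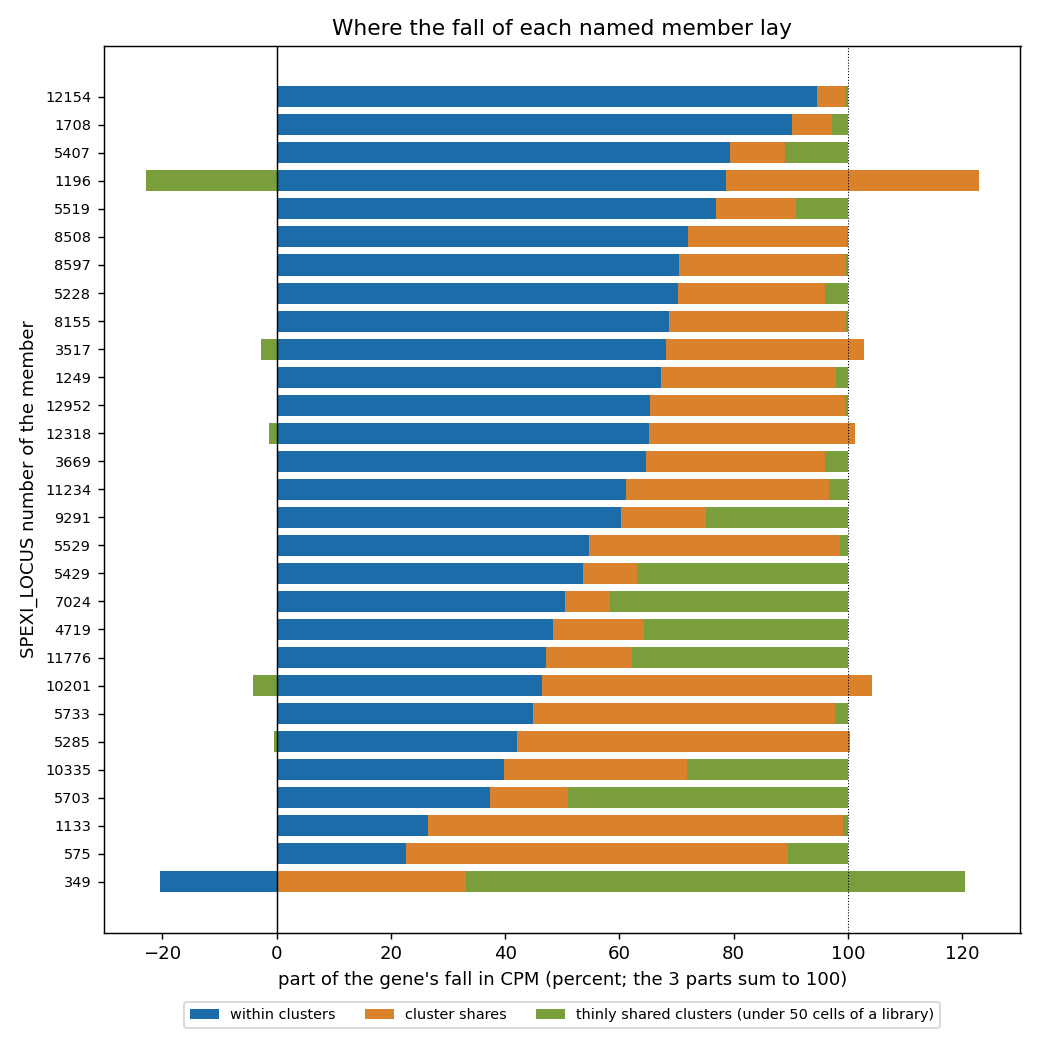
Stacked bars give, for each named member (y axis, locus number), the percentage of its fall in CPM (x axis) from lower levels within clusters, smaller cluster shares and thinly shared clusters. The parts sum to 100%, and a bar left of 0 marks a part that went the other way, as for SPEXI_LOCUS1196 and SPEXI_LOCUS349.

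The clusters changed size between the libraries. Cluster 0 held 14.6% of naïve and 4.92% of challenged cells (2161 and 616), cluster 3 held 10.2% and 3.47% (1518 and 434), and cluster 2 held 8.85% and 5.31% (1314 and 665). Other clusters grew, such as cluster 6, with 1.15% of naïve and 9.89% of challenged cells (171 and 1238). Cluster 15 was nearly confined to the naïve library, with 586 against 13 cells. Cluster 13 had 645 challenged cells and 0 of 14840 naïve cells, where the interval of the naïve share reaches 0.0249%. In every cluster with cells of both libraries, the summed level of the members was lower in the challenged cells, and the smallest difference was in cluster 6 (2266 to 1999 CPM).

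**Figure D4:**
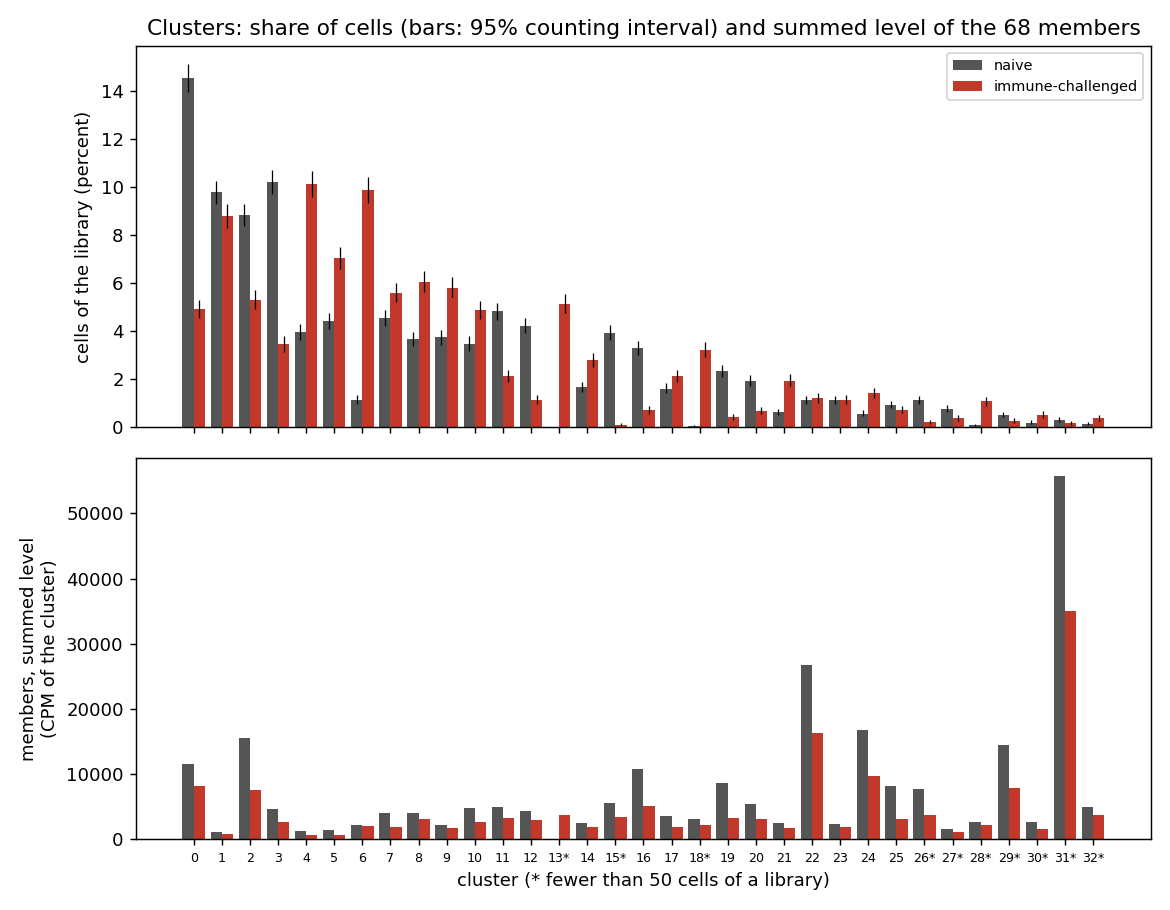
The upper panel gives the percentage of each library's cells in each cluster (bars with 95% counting intervals), and the lower panel the summed level of the 68 members in CPM of the cluster. Cluster 0 went from 14.6% to 4.92% of cells, and the members' summed level was highest in cluster 31 (55726 naïve CPM), the 47 naïve cells that carried most troponin T.

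The largest group of members had its largest share of naïve UMIs in cluster 2. These cells were deep (median 7542 naïve and 8276 challenged UMIs) and carried the cecropin list at 15553 CPM in naïve and 47860 CPM in challenged cells. The cluster held 39.5% of all naïve UMIs of the members and the largest share of the UMIs of 27 members, from 26.0% to 85.8%. All 27 were lower within cluster 2 with an interval below 1, where 29.1% of all genes were. The ratios there ran from 0.215 to 0.846 with a median of 0.480. Lower levels within clusters were the main part for 21 of the 27 and cluster shares for the other 6.

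SPEXI_LOCUS1196 was the most abundant member, at 1012 CPM (interval 1005 to 1019) before and 497 CPM (493 to 502) after challenge. Cluster 2 held 60.0% of its naïve UMIs, and its level there went from 3833 to 1524 CPM (ratio 0.398, 0.390 to 0.406). Cluster 7 (1134 to 357 CPM) and cluster 19 (2516 to 770 CPM) showed the same direction. Other clusters went the opposite way. In cluster 12 the gene went from 99.1 to 1410 CPM (ratio 14.2, 12.2 to 16.6), in cluster 6 from 74.7 to 642 CPM and in cluster 3 from 88.1 to 269 CPM. Clusters 16 (330 to 522 CPM) and 5 (42.5 to 56.6 CPM) were also higher, with intervals above 1. Clusters 12, 6 and 3 were rich in the SPARC list (91264, 75914 and 75274 naïve CPM), but in clusters 9 and 23, rich in it too (62292 and 64286 naïve CPM), the gene had ratios of 0.716 (0.598 to 0.859) and 0.662 (0.496 to 0.877). The challenged cells of cluster 13, which has no naïve counterpart, held 12600 UMIs at 2584 CPM, more than the 11005 challenged UMIs of cluster 2, and the part from thinly shared clusters was -22.9% of the fall. Over the library the ratio was 0.672 with each cell at the same weight and 0.654 after thinning to 1000 UMIs. Cells with a UMI after thinning to 1000 UMIs went from 83.3% to 58.7% in cluster 2. Cluster 5 had 1.89% and 3.96%. Among clusters with at least 50 cells of each library, the naïve level of the gene was lowest there.

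SPEXI_LOCUS12318 went from 322 to 64.4 CPM (ratio 0.200, 0.194 to 0.206), the lowest ratio among members of at least 100 CPM by summed UMIs. The ratio was 0.516 with each cell at the same weight, where SPEXI_LOCUS1133 (0.344) and others were lower, and 0.457 after thinning. Its level in cluster 2 went from 1377 to 364 CPM and in cluster 19 from 836 to 262 CPM. It was lower in 17 of 22 clusters compared. The opposite direction appeared in cells rich in the cathepsin list, from 84.1 to 278 CPM in cluster 14 and from 26.4 to 62.0 CPM in cluster 4. Its highest challenged level was in cathepsin-rich cluster 18 (7 naïve and 405 challenged cells), with 982 UMIs at 1209 CPM. At 1000 UMIs per cell, 61.6% of naïve cells of cluster 2 had a UMI of this gene and the interval of the share in challenged cells ran from 25.5% to 32.8%.

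Further genes of cluster 2 differed in which part dominated. SPEXI_LOCUS12952 went from 56.2 to 8.41 CPM (ratio 0.150) and within cluster 2 from 290 to 65.1 CPM, and 65.3% of its fall lay within clusters. Its ratio was 0.276 with each cell at the same weight and 0.244 after thinning. SPEXI_LOCUS3669 went from 27.8 to 4.55 CPM and was lower in all 6 clusters compared. SPEXI_LOCUS8155 (157 to 49.3 CPM), SPEXI_LOCUS8597 (128 to 51.3 CPM) and SPEXI_LOCUS3517 (221 to 107 CPM) had 68.7%, 70.5% and 68.2% of their falls within clusters. By contrast, SPEXI_LOCUS5285 (290 to 130 CPM), SPEXI_LOCUS10201 (227 to 106 CPM) and SPEXI_LOCUS575 (103 to 47.4 CPM) had 58.4%, 57.7% and 66.9% from cluster shares. SPEXI_LOCUS575 also had 884 of its 8399 naïve UMIs in the 47 cells of cluster 31. SPEXI_LOCUS5529 (177 to 80.6 CPM) lay between these, with 54.7% within clusters and 43.9% from shares. With each cell at the same weight, SPEXI_LOCUS5285 and SPEXI_LOCUS575 had ratios of 0.575 and 0.587. After thinning these ratios were 0.529 and 0.603, and neither gene passed the rule under either setting.

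SPEXI_LOCUS10201 had a ratio of 0.778 with each cell at the same weight and 0.693 after thinning, and did not pass the rule under either. Cluster 2 held 80.9% of its naïve UMIs, its level there went from 1158 to 736 CPM (ratio 0.635), and it was lower in only 9 of 17 clusters compared. In cluster 17 it went from 138 to 347 CPM (ratio 2.51, 2.17 to 2.93). Its median ratio over clusters was 0.916, against 0.454 for SPEXI_LOCUS12318.

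A second group of 14 members had its largest share of naïve UMIs in cluster 3 (23.3% to 48.9%), which was rich in the SPARC list. This cluster held 10.9% of the naïve UMIs of all genes. All 14 were lower within cluster 3 with an interval below 1 (23% of all genes there), with ratios from 0.269 to 0.814. Their falls were spread over all parts, and 8 of the 14 had no part over 50%. A median of 33.4% lay in thinly shared clusters, among them cluster 15, which was also SPARC-rich (91803 naïve CPM) and nearly absent from the challenged library. The 7 clusters grouped as SPARC-rich together went only from 25.4% of naïve to 22.3% of challenged cells. Among them, cluster 6 went up from 1.15% to 9.89%. SPEXI_LOCUS7024 went from 339 to 157 CPM, and in cluster 3 from 1042 to 483 CPM (ratio 0.464, 0.438 to 0.490). In cluster 12 it went from 1470 to 584 CPM, while in clusters 9 and 23, which were also rich in these genes, its ratios were 0.987 and 1.06. SPEXI_LOCUS5429 went from 319 to 137 CPM and was lower in all 21 clusters compared, though cluster 9 was at 0.997 (0.856 to 1.16). The SPARC list itself went from 75274 to 54977 CPM in cluster 3.

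Cluster 0 carried the largest share of naïve UMIs of 7 members, from 17.4% to 58.2%, and 2.95% of the naïve UMIs of all genes. Its cells were shallow, with medians of 847 naïve and 1031.5 challenged UMIs. They were rich in the hypothetical genes HP1 and HP2, at 26584 CPM in naïve but 7173 CPM in challenged cells. Cluster 16 shared this profile, with 28229 CPM in naïve and 4038.5 CPM in challenged cells. Clusters 0 and 16 together went from 17.9% (17.2 to 18.5) of naïve to 5.63% (5.23 to 6.05) of challenged cells. Whether the challenged cells of these clusters are the same class as the naïve ones was not tested. Cluster shares were the main part for 6 of the 7 members. SPEXI_LOCUS1133 went from 167 to 72.5 CPM, with 72.7% of its fall from cluster shares. Within cluster 0 it went only from 3128 to 2585 CPM (ratio 0.827, 0.788 to 0.867). Only 797 naïve and 328 challenged cells of cluster 0 had the 1000 UMIs needed for thinning. Of these deeper cells, 88.5% and 79.3% had a UMI of SPEXI_LOCUS1133, against 1.15% of naïve cells in cluster 19, where it was lowest. Whether the shallow cells differ between the libraries in cell number or in how many passed the cell call was not tested.

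The calphotin-like gene SPEXI_LOCUS5733 was split between both kinds of change. It went from 40.8 to 11.9 CPM (ratio 0.291), with 52.9% of the fall from cluster shares and 45.0% within clusters. This split was not stable. Over 9 clustering alternatives the share part ran from 31.2% to 108% and the part within clusters from -8.36% to 66.3%. Cluster shares stayed the main part in 6 of the 9. In cluster 0 its level went from 497 to 91.1 CPM (ratio 0.184, 0.144 to 0.230) and in cluster 16 from 573 to 12.7 CPM. In the cathepsin-rich cluster 11 it was higher, going from 605 to 874 CPM (ratio 1.44, 1.30 to 1.61).

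SPEXI_LOCUS1249, SPEXI_LOCUS5228 and SPEXI_LOCUS11234 (HP12) had their largest share of naïve UMIs in cluster 11, from 28.7% to 32.6%, with further UMIs in clusters 0 and 16. Cluster 11 held 1.74% of the naïve UMIs of all genes. SPEXI_LOCUS5228 went from 23.9 to 2.12 CPM (ratio 0.0889, 0.0763 to 0.103), SPEXI_LOCUS1249 from 31.8 to 4.58 CPM and SPEXI_LOCUS11234 from 30.0 to 5.24 CPM (ratio 0.175, and 0.114 with at least 500 genes per cell). In cluster 16, SPEXI_LOCUS5228 had 198 naïve UMIs (357 CPM) and 0 challenged UMIs, which at a floor of 3 counts is at least 18.7-fold lower. SPEXI_LOCUS11234 was near its naïve level in cluster 11 (494 to 448 CPM, ratio 0.906, 0.788 to 1.04), whereas SPEXI_LOCUS1249 (596 to 196 CPM) and SPEXI_LOCUS5228 (398 to 65.9 CPM) were lower there with an interval below 1, as were 20.1% of all genes.

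These 3 genes were lower in all 16, 14 and 14 clusters compared, with median cluster ratios of 0.191, 0.128 and 0.131. In many of those clusters the naïve level was only a few CPM, for example 6.60 CPM of SPEXI_LOCUS1249 in cluster 2. After thinning, 7.75% of naïve cells of cluster 11 had a UMI of SPEXI_LOCUS1249 and 0.593% of those of cluster 7. Among clusters with at least 50 cells of each library, its naïve level was lowest in cluster 7. The part of free RNA in these low levels was not tested.

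Cluster 10 held the largest share of naïve UMIs of 5 members (31.3% to 70.3%). Its share of cells was higher after challenge, going from 3.48% to 4.89%, while its share of the UMIs of all genes went from 3.89% to 2.48%. The median depth of its cells was lower after challenge (5043 and 3177 UMIs), unlike in most clusters. All 5 members were lower within it with an interval below 1, but 41.8% of all genes were. SPEXI_LOCUS9291 had the lowest ratio of all members, going from 26.2 to 0.931 CPM (2125 to 88 UMIs, ratio 0.0358, 0.0284 to 0.0441). That ratio was 0.0963 with each cell at the same weight and 0.0578 after thinning. Within cluster 10 it went from 429 to 11.9 CPM, and cells with a UMI after thinning went from 10.5% to 0.578%. It was one of the leading genes by which cluster 10 stood apart, together with the member SPEXI_LOCUS12129.

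SPEXI_LOCUS4719 (24.9 to 4.02 CPM) and SPEXI_LOCUS5703 (23.2 to 3.32 CPM) also had their largest share of naïve UMIs there, with levels in cluster 10 going from 332 to 61.4 CPM and from 226 to 17.5 CPM. Both had no part over 50%, since 35.7% and 49.1% of their falls lay in thinly shared clusters. Cluster 26, with 167 naïve and 27 challenged cells, held 32.8% and 30.0% of their naïve UMIs. SPEXI_LOCUS5703 was highest in cluster 31 (6617 to 4953 CPM), which held 394 of its 1883 naïve UMIs. Its ratio of 0.144 was 0.416 with each cell at the same weight and 0.424 after thinning. These genes came from few cells, and the 1% of naïve cells with the most UMIs held 89.5%, 87.4% and 94.2% of the UMIs of SPEXI_LOCUS9291, SPEXI_LOCUS4719 and SPEXI_LOCUS5703.

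The prophenoloxidase-rich cluster 5 held the largest share of naïve UMIs of 4 members (31.5% to 89.2%), and 8.73% of the naïve UMIs of all genes. Its share of cells went up from 4.43% to 7.06%, and the 2 prophenoloxidase genes there went from 78332 to 83558 CPM. The 4 are SPEXI_LOCUS505, SPEXI_LOCUS4130, SPEXI_LOCUS10646 and SPEXI_LOCUS4540, and they are named here after their values were seen. Their falls all lay mainly within clusters, with ratios in cluster 5 from 0.195 to 0.410 and all intervals below 1 (13.2% of all genes there). SPEXI_LOCUS4130 was the most restricted, with 89.2% of its naïve UMIs in this cluster, and went from 25.4 to 6.58 CPM in the library.

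The remaining 8 members had their largest share of naïve UMIs in 7 other clusters. SPEXI_LOCUS5407 (BLL4) went from 101 to 49.4 CPM (ratio 0.491, 0.474 to 0.509). Its ratio was 0.567 with each cell at the same weight and 0.526 with the TMM factor or after thinning. It did not pass the rule under these. Of its naïve UMIs, 85.5% were in cluster 22. That cluster kept its share of cells (1.14% and 1.22%), and the level of BLL4 in it went from 17342 to 9193 CPM (ratio 0.530, 0.510 to 0.551). Nearly all of its cells still had a UMI at equal depth, 91.9% of naïve and 94.4% of challenged cells. The summed cecropin list went from 17097 to 95589 CPM in the same cells.

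SPEXI_LOCUS12154 went from 178 to 83.8 CPM with 94.7% of the fall within clusters, the largest such percentage among members of at least 100 CPM. It was lower in 15 of 16 clusters, from 860 to 542 CPM in cluster 8 and from 841 to 196 CPM in cluster 17. SPEXI_LOCUS1708 went from 20.9 to 3.20 CPM (ratio 0.153, and 0.243 with each cell at the same weight) and was lower in all 8 clusters compared. In cluster 17, which held 36.2% of its naïve UMIs, it went from 384 to 45.7 CPM, and in cluster 2 from 33.9 to 0.970 CPM.

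Troponin T (SPEXI_LOCUS349) came mostly from few cells. It went from 20.8 to 7.44 CPM (1689 to 703 UMIs), and 75.1% of its naïve UMIs were in cluster 31, which held 47 naïve and 21 challenged cells, where its level went from 21313 to 10022 CPM. Its ratio over the library was 0.358, and 0.588 with each cell at the same weight or 0.541 after thinning, so that it did not pass the rule under either. The 3 muscle genes summed to 59875 naïve CPM in that cluster. In cluster 11 the gene had 111 naïve and 0 challenged UMIs, at least 17.5-fold lower, while in cluster 3 it went from 14.5 to 73.7 CPM (ratio 5.09, 4.07 to 6.39). Thinly shared clusters made up 87.3% of its fall. The same part was the main one for SPEXI_LOCUS7963, whose largest share of naïve UMIs was in cluster 15, and for SPEXI_LOCUS7496 and SPEXI_LOCUS455, with theirs in cluster 29 (78 naïve and 34 challenged cells).

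**Figure D5:**
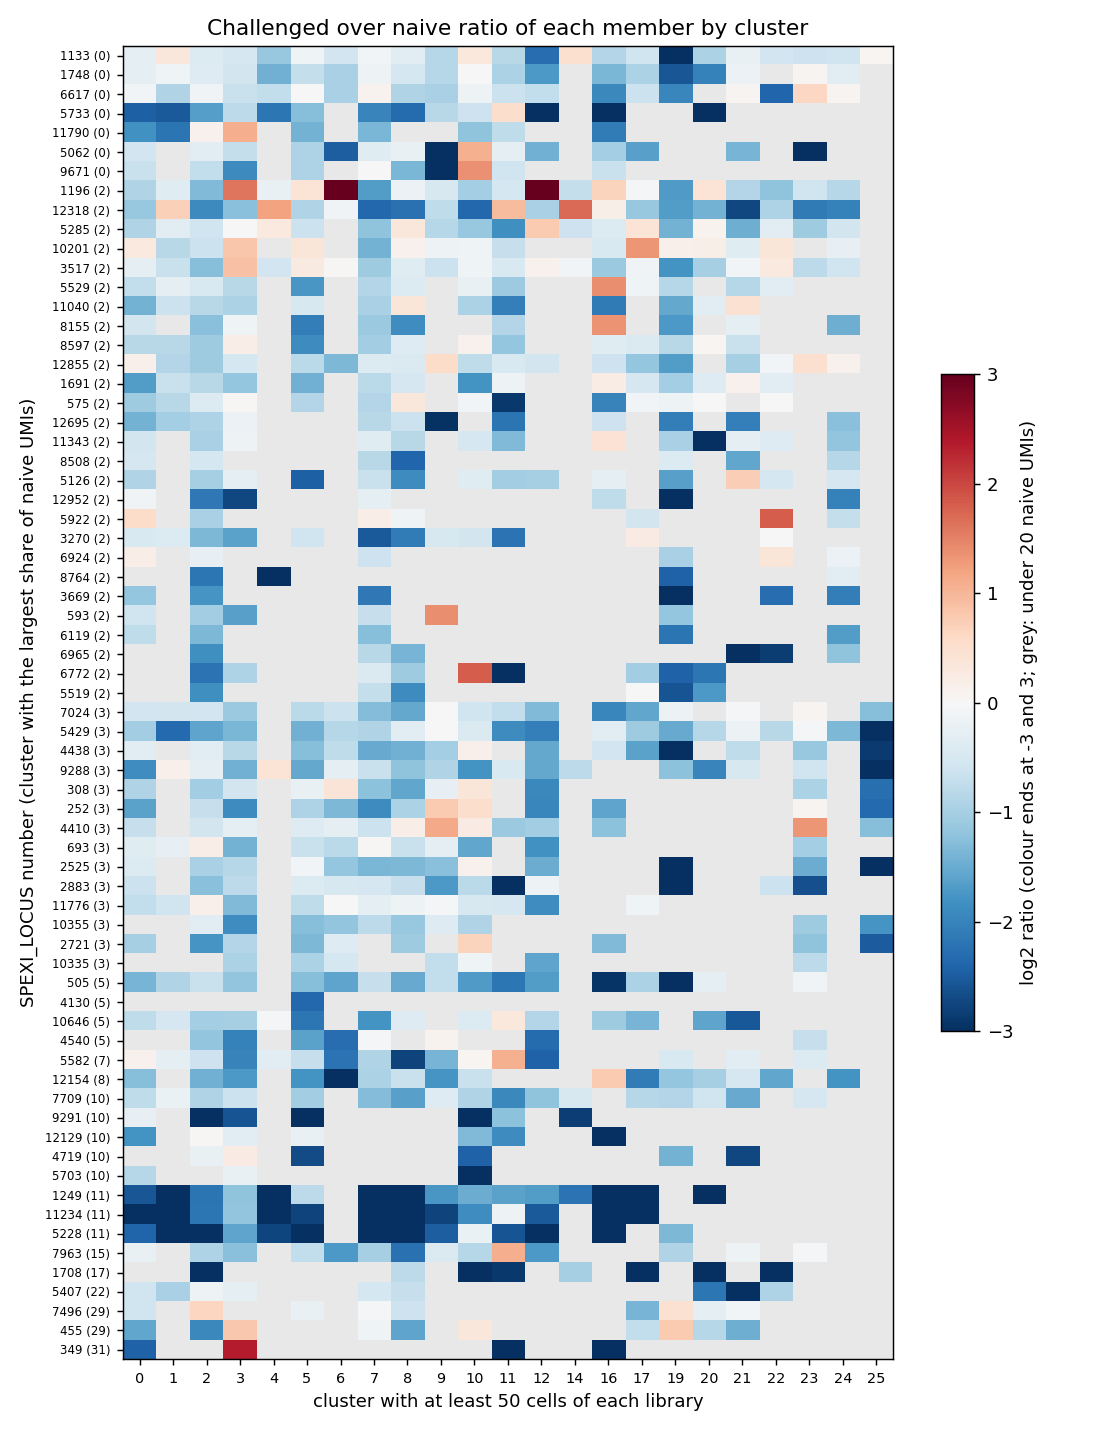
Log2 of the challenged over naïve ratio of each member (rows, ordered by the cluster with the largest share of naïve UMIs, given in brackets) in each of the 23 clusters with at least 50 cells of each library (columns). Blue marks a lower and red a higher level after challenge, grey marks under 20 naïve UMIs, and 730 of the 838 coloured cells are under a ratio of 1. The share under 1 over all genes was not counted.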

How the data were processed

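Hemocyte libraries were made with the 10x Chromium 3′ workflow. The authors processed the reads with Cell Ranger (the file headers name version 7.2.0) and deposited UMI counts that were not normalized, with 1 value for each gene in each called cell. Sums, CPM, ratios and exact intervals were computed from these counts in Python 3.11.15 with scipy 1.17.1. The mitochondrial filter of the study was not applied. Doublets called by Scrublet in scanpy 1.11.5 (376 naïve and 224 challenged cells, 2.53% and 1.79%) were kept and left out in an alternative. Cells were clustered in Seurat 5.3.0 (R 4.3.3) with 5000 variable genes, 30 components and a resolution of 0.8, and falls were divided at the mean level and mean UMI share of both libraries. The arithmetic of the ratios and of the division was checked on simulated counts with the clusters held fixed, which does not test the clustering. Thinning to 1000 UMIs left out 2683 naïve and 1066 challenged cells, and shares of cells after thinning are of the cells that remained. Alternatives included the TMM factor of edgeR 4.0.16. Named are members with a known name, the 10 most abundant, the 10 with the lowest ratio, the 5 with the largest part within clusters and the 5 with the largest share part among those of at least 100 CPM, and the genes nearest the thresholds. The members and marker lists were chosen with earlier results of these data known.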

Additional observations from a re-analysis of the deposited data

Results flagged for a closer look

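In 4 of the named members, 1 cluster was over 2-fold higher and another over 2-fold lower after challenge, with both intervals clear of these limits. The named members were partly chosen for extreme values, and the share of all genes that meet both limits was not counted. Over all genes, the interval was above 1 in 21.3% of gene and cluster pairs and below 1 in 20.4%. Opposite directions are therefore not read as a trait of the members. The difference between the clusters was not tested, since each condition had 1 library. SPEXI_LOCUS1196 had a ratio of 14.2 in cluster 12 and 0.398 in cluster 2. SPEXI_LOCUS12318 had 3.26 (2.22 to 5.08) in cluster 14 and 0.264 (0.253 to 0.275) in cluster 2. SPEXI_LOCUS10201 had 2.51 in cluster 17 and 0.373 (0.341 to 0.409) in cluster 7. SPEXI_LOCUS349 had 5.09 in cluster 3 and no challenged UMI in cluster 11.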

How the results depend on the processing

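All 68 members had a ratio under 1 under each of the 8 alternatives for cells and scaling. This was nearly fixed in advance, since they were chosen at 0.5 or less on the same counts. Whatever their level, 50 members stayed at 0.5 or less with each cell at the same weight. With the TMM factor 53 did, and after thinning 55. The number of genes passing the rule moved from 68 to 180 when each cell had the same weight (46 of the 68 among them, and the median log2 ratio of all genes shifted by -0.12), to 103 and 28 with a naïve minimum of 10 and 50 CPM, and to 36 and 123 with a ratio limit of 0.4 and 0.6. The TMM factor gave 52 genes passing the rule, all of them members, and thinning gave 87 with 52 of the 68 among them. The median ratio of the named members, 0.358, was 0.326 with at least 500 genes per cell, 0.413 with each cell at the same weight and 0.392 after thinning. With response genes left in the clustering, members mainly within clusters, under shares and under no part were 19, 25 and 21. Members mainly under clusters with under 50 cells of a library were 0 at a resolution of 0.4 and with a minimum of 20 cells, 2 with members left out and 1 with 15 components, and those with no part over 50% were 5 with 15 components and 3 after RPCA integration. In 15 of 42 members the main part was lower levels within clusters under all 9 clustering alternatives, and in 7 of 12 it was cluster shares. The cause of these shifts was not tested. No paired analysis was possible because each condition had 1 library, and no replicate could be left out. UMI depth limits ratios in clusters with few UMIs of a gene.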
